A study of Mus musculus with 6 samples.

Results

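The open chromatin described here is that of nuclei sorted from the ventral tegmental area of control mice, a midbrain region rich in dopamine neurons. Its members are the 1000 regions of highest mean accessibility, chosen by the mean RPKM (reads scaled to the width of the region and the total of the library) over the 3 control libraries, out of 193148 regions, or 0.518% of them. The level of these regions was therefore fixed by the choice and is given as a description, with no test. The series holds 6 ATAC-seq libraries, and the 3 of the Ogtflox-/Y genotype were used. ATAC-seq reads out DNA that is open to a transposase. The control mice were males without a floxed allele of Ogt, the X-linked gene of O-GlcNAc transferase, an enzyme that attaches a sugar to serines and threonines of nuclear and cytoplasmic proteins. They had received the same 2 adeno-associated viral vectors in the ventral tegmental area as the knockdown mice: AAV-TH-Cre, which carries Cre recombinase and is named for tyrosine hydroxylase, and AAV-DIO-H2B-EGFP, a Cre-dependent vector for a green fluorescent histone. Fluorescent nuclei were sorted, so the cells read out are those in which the first vector was active. The labels call these cells dopaminergic. The Cre vector is thus present in the controls too, the sequence of its promoter is not given in the sources used here, and the extraction label names a general DNA library kit with no transposition step. Whether the libraries came from separate animals is also not given, so each spread below is the spread between 3 libraries and may be technical. In a mixture of nuclei, fewer nuclei of a type and less openness per nucleus cannot be told apart.

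Open chromatin marks DNA that nucleosomes leave free, mainly promoters and enhancers. Promoters of widely expressed genes are typically rich in CpG dinucleotides and open in most cell types, while enhancers, farther from genes, differ more between cell types. Midbrain dopamine neurons are known by Th, which makes the precursor of dopamine, Ddc, which converts it to dopamine, Slc6a3, which takes dopamine back up, and the transcription factors Nr4a2 and Pitx3.

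Promoter sequences were taken from RefSeq (GRCm38.p6, the assembly called mm10), from 250 bases before a start site to 50 after it. The 5 below are shown because the region of highest level lies at the Th start, Slc6a3 is the marker of lowest level, and Dnpep, Gsk3b and Rps6ka5 stand for the regions of ranks 4, 11 and 12. Capitals mark every match, on either strand, to 3 motifs: the GC box GGGCGG, the box CCAAT, and the cyclic AMP response element TGACGTCA. A match on the opposite strand appears as the reverse complement of those letters. Each is written 5′ to 3′ on the strand of its gene.
Th (chr7:142899946-142900245, minus strand): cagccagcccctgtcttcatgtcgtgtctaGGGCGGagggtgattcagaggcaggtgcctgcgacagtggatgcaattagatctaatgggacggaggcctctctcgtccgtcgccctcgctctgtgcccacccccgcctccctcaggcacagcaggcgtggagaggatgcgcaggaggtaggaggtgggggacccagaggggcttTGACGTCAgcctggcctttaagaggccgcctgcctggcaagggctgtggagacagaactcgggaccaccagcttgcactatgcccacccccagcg
Slc6a3 (chr13:73536497-73536796, plus strand): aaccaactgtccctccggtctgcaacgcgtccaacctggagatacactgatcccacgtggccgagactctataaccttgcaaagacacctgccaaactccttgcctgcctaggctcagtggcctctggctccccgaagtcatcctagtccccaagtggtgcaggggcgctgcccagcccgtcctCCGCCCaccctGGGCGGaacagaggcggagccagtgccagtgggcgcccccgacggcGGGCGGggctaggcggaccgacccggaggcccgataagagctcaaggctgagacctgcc
Dnpep (chr1:75317588-75317887, minus strand): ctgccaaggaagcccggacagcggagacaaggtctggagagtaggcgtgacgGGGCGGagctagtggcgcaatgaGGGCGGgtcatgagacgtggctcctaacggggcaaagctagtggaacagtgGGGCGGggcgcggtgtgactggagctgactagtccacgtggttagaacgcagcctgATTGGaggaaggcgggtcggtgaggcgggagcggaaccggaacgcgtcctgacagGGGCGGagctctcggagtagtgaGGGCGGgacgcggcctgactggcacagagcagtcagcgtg
Gsk3b (chr16:38088751-38089050, plus strand): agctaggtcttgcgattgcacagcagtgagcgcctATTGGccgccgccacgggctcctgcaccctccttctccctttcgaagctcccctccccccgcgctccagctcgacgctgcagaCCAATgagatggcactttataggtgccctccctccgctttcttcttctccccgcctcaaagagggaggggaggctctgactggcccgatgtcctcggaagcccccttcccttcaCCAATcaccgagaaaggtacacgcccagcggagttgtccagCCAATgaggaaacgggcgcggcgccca
Rps6ka5 (chr12:100725071-100725370, minus strand): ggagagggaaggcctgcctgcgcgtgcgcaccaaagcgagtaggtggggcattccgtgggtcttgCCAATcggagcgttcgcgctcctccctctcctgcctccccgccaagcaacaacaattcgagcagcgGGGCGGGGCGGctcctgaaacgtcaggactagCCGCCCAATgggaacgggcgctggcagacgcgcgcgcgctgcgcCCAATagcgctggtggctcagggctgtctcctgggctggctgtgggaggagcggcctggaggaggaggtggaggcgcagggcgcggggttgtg
The Th promoter held 1 response element, which began 45 bases before the start site, and 1 GC box. Slc6a3 held 3 GC boxes and no CCAAT box. Dnpep held 5 GC boxes and 1 CCAAT box, Rps6ka5 held 3 of each, and Gsk3b held 4 CCAAT boxes and no GC box.

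The libraries held 34384319, 66853563 and 52895584 reads, of which 37.4% ± 0.809 (SD, n = 3) fell in the regions. At the median region these totals came to 32, 61 and 51 reads, and at the median of the 1000 regions to 709, 1200.5 and 1026 reads. The 1000 regions took 5.45% ± 0.285 (SD, n = 3) of the reads in regions. Accessibility was strongly uneven. The median region had a mean RPKM of 2.25 and the 90th percentile was 10.3, while 7661 regions, or 3.97%, reached 20 RPKM. The 10% of regions with the highest level held 45.5% of the summed RPKM, and the lower 50% held 14.7%. The 1000 regions ran from 41.6 to 258.6 RPKM with a median of 47.8. Their median exceeded that of all regions 22.8-fold, 20.3-fold and 20.9-fold in the 3 libraries.

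**Figure D1:**
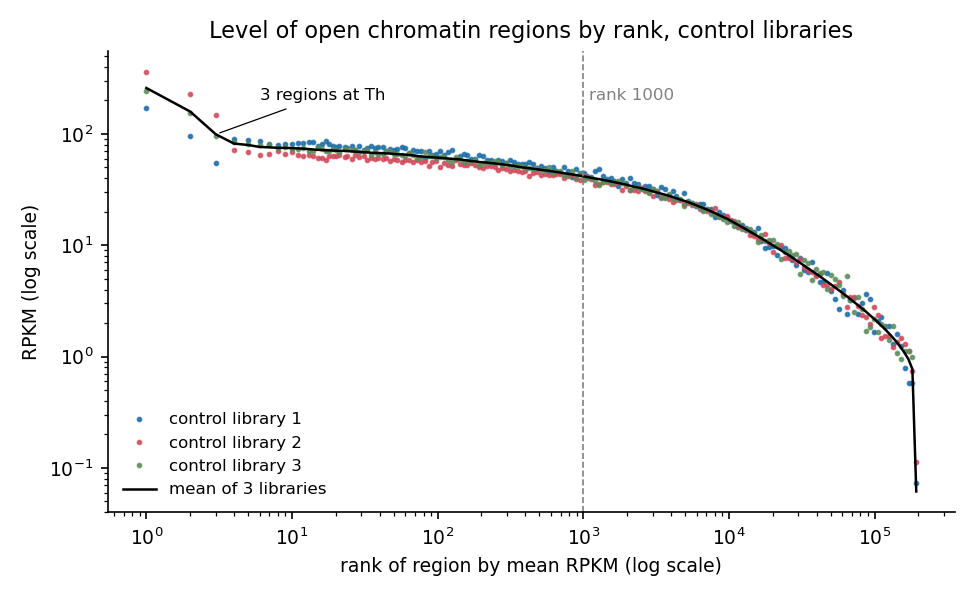
Level of regions (RPKM, log scale) against their rank by mean RPKM (log scale) at ranks spaced evenly on the log scale. Points are the 3 control libraries and the line is their mean. The 3 regions at Th stand above a plateau that starts at 81.9 RPKM at rank 4 and reaches 41.6 at rank 1000.

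The curve of level by rank had a step at its top and no step at the boundary of the set. From rank 1 to rank 4 the level fell 3.16-fold, and from rank 4 to rank 1000 it fell 1.97-fold. The last regions inside the set, nearest to Ercc1, Rwdd4a and Kifc5b, had 41.59, 41.58 and 41.58 RPKM. The first outside it, nearest to Coq6, Gzf1 and Zbtb21, had 41.58, 41.57 and 41.57 RPKM. Rank 1000 is thus a cut through a continuous slope.

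The 3 regions of highest level all lay at Th, which encodes tyrosine hydroxylase, the rate-limiting enzyme of dopamine synthesis. The first, chr7:142899971-142900371, covers the annotated start of the gene. It had 169.8, 361.7 and 244.2 RPKM in control libraries 1, 2 and 3, a mean of 258.6 ± 96.7 (SD, n = 3). The second, chr7:142901116-142901516, begins 1121 bp upstream of the start and had 95.2, 228.3 and 152.9 RPKM. The third, chr7:142901720-142902120, ends 2125 bp upstream and had 54.5, 147.5 and 95.5 RPKM. All 3 were highest in library 2 and lowest in library 1, and the level fell with distance from the start in each library.

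High levels at Th ended within this stretch. The next region upstream, 7940 bp from the start, had 2.61, 2.72 and 4.76 RPKM. The next region inside the gene, chr7:142894673-142895073, had 6.16, 5.07 and 5.66 RPKM and rank 39049. In both of these regions the order of the libraries differed from that at the start. The ratio of library 2 to library 1 was 2.13, 2.40 and 2.70 in the 3 high regions, in order of distance, and 0.823 in the region inside the gene. In the other 997 regions of the set that ratio had a median of 0.857 and ran from 0.670 to 1.12, so the 3 regions at Th lay outside its whole range. The 3 regions took 0.0336%, 0.0809% and 0.0526% of the reads in regions. The order of the libraries at Th was also the order of their total reads, which RPKM already divides out; its part in the result was not tested. Reads from any Th sequence in the injected vector and reads from the chromosome cannot be told apart in these files.

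**Figure D2:**
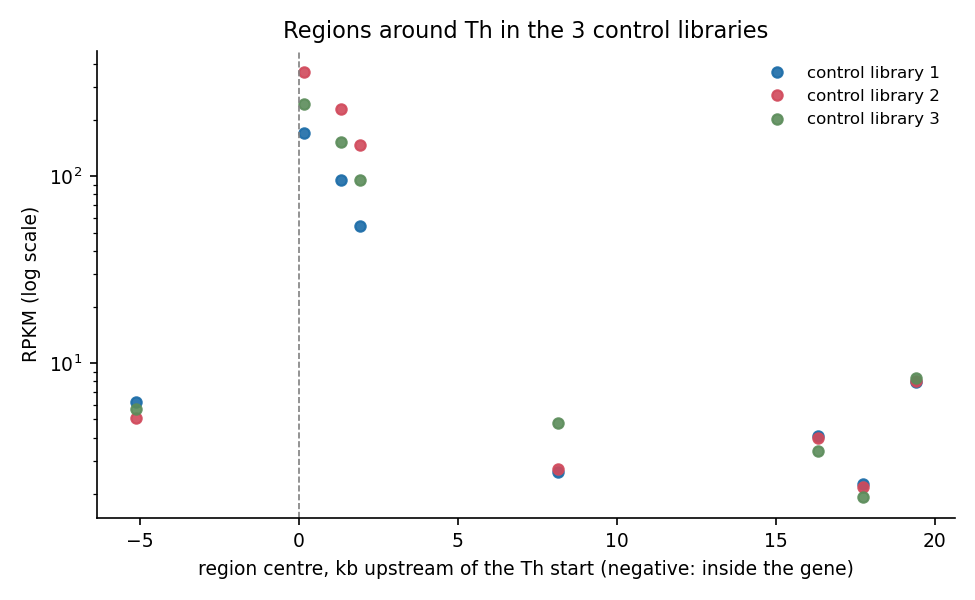
RPKM (log scale) of every region whose centre lies within 20 kb of the Th start, in the 3 control libraries, against the distance of the region's centre upstream of the start in kb (inside the gene is negative). The 3 regions from the start to 2125 bp upstream stand between 54.5 and 361.7 RPKM, and every other region plotted lies below 10 RPKM.

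The other markers of dopamine neurons gave a different picture. At its own start, Nr4a2, a nuclear receptor needed for the dopaminergic fate, had 6.09, 6.15 and 8.72 RPKM. Pitx3, a homeobox factor of midbrain dopamine neurons, had 5.51, 5.82 and 7.12 RPKM at its start. The region at an internal start of Ddc, the decarboxylase, had 3.77, 5.45 and 6.08 RPKM. Slc6a3, the dopamine transporter, had 3.84, 3.66 and 4.15 RPKM. These 4 levels had means of 3.88 to 6.99 RPKM. Every region lay below the Th start in each library, where it had rank 1, so a lower level than Th is not particular to them. All 4 lay below the median of 20.3 RPKM over the 11329 coding genes with a region within 1000 bp of a start site. So of the 5 markers of the labelled cell type, Th alone had a high level at its own start, and there reads of the vector and the chromosome cannot be told apart.

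A wider window credited some markers with the promoters of other genes. Within 5000 bp of the gene, Pitx3 had a region of 52.1, 46.5 and 50.9 RPKM, rank 396, but that region lies at the start of Gbf1. The highest region near Ddc, with 23.6, 20.9 and 23.9 RPKM, lies at the start of Fignl1. For Nr4a2 the highest was inside the gene, at 12.1 RPKM ± 1.49 (SD, n = 3), and for Slc6a3 it was the start itself. Slc6a3 had 2 regions within this window and Ddc had 18, of 0.786 to 22.8 RPKM.

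Of the 17 regions of ranks 4 to 20, 13 lay at a known start of a gene. Rank 4, at Dnpep, an aspartyl aminopeptidase, had 89.1, 71.8 and 84.7 RPKM. Rank 5, upstream of Tomm40, the channel of the outer mitochondrial import machinery, had 89.0, 68.9 and 80.5 RPKM. Rank 6, at Khsrp, an RNA-binding protein of mRNA decay and splicing, had 85.7, 64.7 and 78.7 RPKM. In all 17 of these regions library 2 was lowest, the reverse of the order at Th.

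Sp1, a zinc finger factor that binds GC boxes, had a mean of 75.7 RPKM, and Nfya, a subunit of the factor that binds CCAAT boxes, shared its region with the start of Oard1 at 71.2 RPKM. Sin3a, the scaffold of a histone deacetylase complex, had 74.5 RPKM in a region inside the gene, 3974 bp from its start. The kinases Gsk3b, Rps6ka5 and Map3k14 had 73.9, 73.7 and 70.6 RPKM. Others were Mtmr4 (74.9 RPKM), Mlec (74.9), Fbrs (73.0), Clec11a (72.4), Slc25a42 (71.9), Mon1b (71.8) and Cactin (71.2). The regions of ranks 4 to 20 span 70.6 to 81.9 RPKM, with an SD between libraries of 4.78 to 14.3 RPKM. Part of that SD is a shift between libraries that these regions share, as given above. It therefore does not measure the spread of the difference between neighbours, and whether neighbours in this order differ was not tested.

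Location was compared with the bounds of 21883 protein-coding genes in RefSeq (GRCm38.p6). Of the 1000 regions, 851 (85.1%) lay within 1000 bp of a gene bound, here called gene end, against 22585 (11.7%) of all regions. Another 117 (11.7%) lay deeper within a gene, against 56.3%, and 32 (3.2%) lay between genes, against 32.0%. The top 1000 regions of each library alone had 85.1%, 84.7% and 85.5% at gene ends. These values differed by at most 0.8 percentage points, whichever library ranked the regions. Bounds do not separate exons, introns and untranslated parts, which were not analysed here.

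Nearly all of the bounds in question were starts. Of the 851 gene-end regions, 105 had a gene of unknown strand, 740 lay at a start and 6 at an end, 99.2% starts against 80.9% for all gene-end regions. An annotated start site lay inside 645 (64.5%) of the 1000, against 5.06% of all regions. Start sites on both strands, as at promoters that serve genes in opposite directions, lay inside 77 of them, which was 11.9% of those with a start site against 5.81% over all regions.

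The share at gene ends rose with level across all regions, not only at the top. It was 2.48% in the decile of lowest mean RPKM, 4.58% in the fifth, 19.6% in the ninth and 56.5% in the highest. The share between genes fell over the same deciles from 51.7% to 14.8%. Within genes it was highest in the middle, at 65.2% in the sixth decile.

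**Figure D3:**
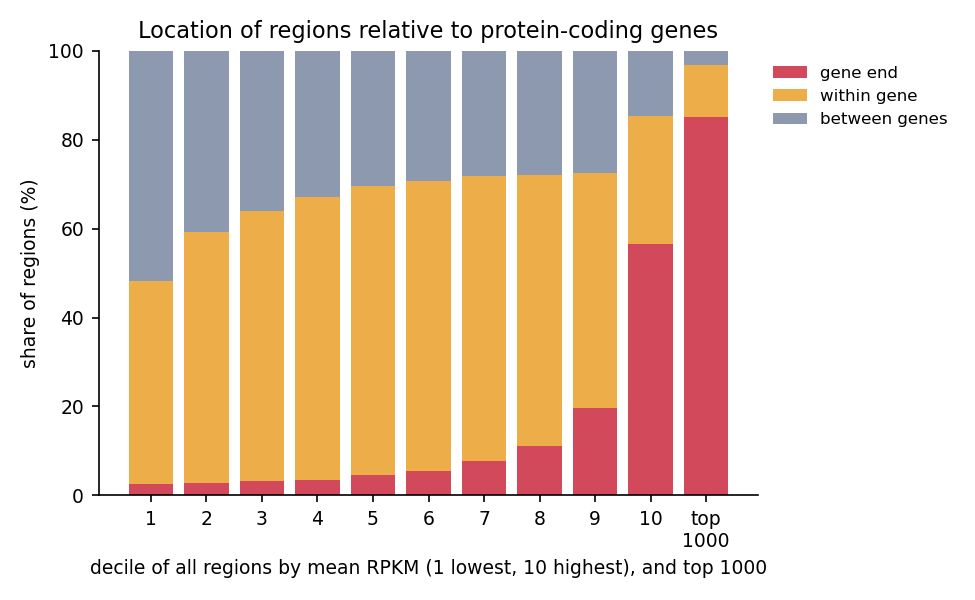
Share of regions (percent) at a gene end, within a gene and between genes, for each decile of all 193148 regions by mean RPKM (1 lowest, 10 highest) and for the 1000 regions of highest level. The gene-end share is 2.48% in the lowest decile, 56.5% in the highest and 85.1% in the 1000 regions.

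Over all regions the median level was 9.71 RPKM at gene ends, 2.18 within genes and 1.78 between genes. Of the 149 regions of the set away from gene ends, 28 (18.8%) lay within 1000 bp of an end of a noncoding gene or pseudogene, against 5.42% of all regions away from coding gene ends. After the pair upstream of Th, those of highest level lay in Sin3a, Clec11a and Hdac4, the last a histone deacetylase, 15046 bp from its start at 70.5 RPKM. Hdac4 was named after its value was seen. Only 20 of the 1000 lay over 10000 bp from any coding gene (2.0%), against 48360 of the 193148 regions in all.

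The 5 most remote regions were 58018 to 589530 bp from a coding gene. The farthest, whose nearest gene is the receptor gene F2rl3, had 44.8, 42.8 and 45.9 RPKM. The next, 236261 bp from Myt1l, a zinc finger factor of neurons, had 51.3, 43.2 and 45.8 RPKM. The regions nearest to Pcmtd1 (224209 bp), Zfat (104243 bp) and Zfp706 (58018 bp) had means of 43.9, 43.5 and 42.7 RPKM. The regions of Pcmtd1 and Zfp706 lie at an end of a noncoding gene or pseudogene.

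No region of chromosome X was among the 1000, although the X held 3564 regions, and its highest region had 33.3 RPKM and rank 2289. The mice are male and carry a single X. At gene ends the median level was 6.06 RPKM ± 0.0358 on the X and 9.89 ± 0.130 on the autosomes (SD, n = 3 each). The ratio of the medians was 0.615, 0.606 and 0.619 in the 3 libraries. Pgk1, an X-linked glycolysis gene, had 25.4 RPKM at its start, and Syp, the X-linked gene of the synaptic vesicle protein synaptophysin, had 12.7. On the autosomes the share of regions in the set ran from 0.319% on chromosome 18 to 0.961% on chromosome 7, which held 108 of the 1000, followed by chromosome 11 with 95.

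The 1000 regions were spread over 987 nearest genes. Th was nearest to 3, and 11 genes were nearest to 2 each, among them the transcriptional regulators Cic, Camta1 and Zfpm1, the cyclin gene Ccne1 and Ptma. The other such genes were Pcmtd1, Opa3, Bicdl1, Garnl3, Zfp706 and Cryzl1. Among neighbouring members, 10 pairs lay at most 5000 bp apart. The number of such pairs in an equal number of other regions was not counted, so this is a description. Th was the only gene nearest to 3 members.

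Motifs were counted in the 777 promoters, of 725 genes, whose start lay in a region of the set. They were compared with the 11105 promoters whose start lay in any region and with all 21262. Base composition moved with level: median GC content was 64.3%, 61.7% and 56.3% in these 3 groups, and the median number of CpG dinucleotides 25, 21 and 13. Both strands were searched, and a match is a description of the letters, not of a bound site.

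CCAAT, the box bound by the factor that contains Nfya, was in 66.9% of the promoters of the set, 39.0% of those in any region and 38.2% of all. Across regions ordered by rank the share was lower below the set. It was 57.7% for ranks 1001 to 2000, 43.2% for 2001 to 5000, 35.1% for 5001 to 10000, 32.4% for 10001 to 20000, 30.3% for 20001 to 50000 and 30.9% beyond. GC content over the ranks 1 to 5000 changed little, with medians of 64.3%, 64.7% and 63.0%. Gsk3b and Rps6ka5, printed above, are examples with 4 and 3 such boxes.

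The GC box GGGCGG was in 83.4%, 66.5% and 46.2% of the same 3 groups. The letters ACTACAA, part of a ZNF143 site, were in 9.78%, 4.34% and 3.60%. The ETS letters CCGGAAG were in 21.2% of the set, 1997 of the 11105 promoters in any region and 11.6% of all, and peaked not in the set but at 23.6% for ranks 2001 to 5000. The NRF1 letters GCGCATGCG (3.99%, 3.92% and 2.35%) and the YY1 letters AAGATGGCG (3.35%, 3.07% and 1.83%) were about as common in the set as in promoters in any region.

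The TATA box and letters of some factors that act on inducible or cell-type genes were rarer in the set. TATAAA was in 3.22% of its promoters, 6.01% of those in any region and 12.6% of all. TGANTCA, the AP-1 site, was in 2.70%, 4.62% and 6.99%, TAATTA, a homeobox core, in 0.257%, 2.37% and 4.53%, and AAAGGTCA, the site of NR4A factors, in 0.257%, 0.810% and 1.30%. In contrast, the full response element TGACGTCA, as printed for Th, was in 5.02%, 3.48% and 2.23%. Its core TGACG, which that element also holds, was in 42.2%, 32.2% and 23.6%. CACGTG was in 9.40%, 10.2% and 7.84%.

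Neuronal and glial identity was described with 13 lists of 149 genes in all, taking for each gene its region of highest level within 5000 bp. Over all coding genes, 6.21% had a region of the set within that distance, and the median of their highest regions was 19.3 RPKM. The rule used these levels, so the counts are a description. In 14 of the 149 genes the highest region lay nearest to a bound of another gene. The levels at the gene's own start, within 1000 bp, are therefore given beside them. Start sites are those of the promoter entries, and some, as for Ddc, lie inside the gene.

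Immediate early genes, which activity switches on within minutes in neurons, were high. Of 14, 4 had a region of the set, and the median of the highest regions was 31.7 RPKM. The count of 4 was 1 without division by width, 2 by the median over libraries and 0 in the top 500. Jun had 48.4, 41.0 and 45.2 RPKM, Btg2 44.6, 41.4 and 43.5, Jund a mean of 42.8, and Npas4 48.1, 38.3 and 39.6, at their starts or, for Npas4, inside the gene. The lowest was Egr3 at 13.4 RPKM. At their own starts the 10 with an entry ran from 18.6 to 44.9 RPKM, including Fos at 20.5 and Npas4 at 21.8, rank 6544. Of these 10, 3 had a region of the set there, against 5.29% of all coding genes with an entry. Of 18 housekeeping genes, 4 had a region of the set, with a median of 29.5 RPKM. Hspa8, a chaperone, had 71.5, 57.5 and 64.4 RPKM. The highest region near Tubb5 lay at the start of Mdc1 (47.5 RPKM), and Actb and Atp5b had 47.4 and 46.3 RPKM. Tbp was lowest at 17.0 RPKM, and Eef2 had no region within 5000 bp. At their own starts 12 of the 13 with an entry had a region, with a median of 28.9 RPKM and 1 in the set. Reads of near-identical copies of such genes elsewhere in the genome may have been shared among them.

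Pan-neuronal genes were open but below the set, with 0 of 15 in it, a median of 22.7 RPKM and a range of 14.6 to 32.6. Syt1, a calcium sensor of synaptic vesicles, had 31.3, 32.7 and 33.7 RPKM, Tubb3 had 32.6, 31.9 and 29.7, and Stmn2 33.7, 27.6 and 30.1. The lowest was Syp. At their own starts the 10 genes with an entry had a median of 22.4 RPKM, close to the 20.3 of all coding genes. Lowest was Rbfox3, which encodes the neuronal nuclear antigen NeuN, at 4.94. Another region inside Rbfox3, whose nearest gene bound is the start of Rbfox3, had 23.2, so 4.94 does not stand for the whole gene. Counted over gene and flanks, pan-neuronal genes had a median of 23.1 regions per 100 kb, immediate early genes 30.1 and housekeeping genes 22.9. Dopaminergic markers had 19.1, astrocyte genes 19.1 and all coding genes 11.3. Below the last lay microglia (9.97), endothelial and mural (7.74) and oligodendrocyte precursor genes (6.14). Median windows were 13.6 kb for immediate early, 14.7 for housekeeping, 47.1 for pan-neuronal and 27.2 for all coding genes, so the stretches counted are unlike.

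Genes of neurotransmitter classes were lower and overlapped each other. The other dopaminergic genes had 0 of 15 in the set and a median of 8.59 RPKM. Kcnj6, a potassium channel, had 26.5 RPKM, Lmx1b, a transcription factor, 24.6, and Ret, a receptor for glial neurotrophic factors, 19.1. The lowest was Otx2 at 1.93. GABAergic genes (0 of 14) had a median of 6.41 RPKM, glutamatergic genes (0 of 10) 6.13 and serotonergic genes (0 of 5) 9.41. Leading among the GABAergic genes were Lhx1, through the start of Aatf (21.2 RPKM), Gata2 (16.1) and Pvalb (12.5), and Sst was lowest at 2.08. Slc17a7, a vesicular glutamate transporter, had 30.2, 29.8 and 30.9 RPKM in a region between genes, Slc17a6 had 13.1 and Slc17a8 2.15. The serotonergic genes ran from Tph2 (4.11) to Slc6a4 (13.3), with Htr1a at 9.41 and Fev between the last 2.

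At their own starts these classes came in the order serotonergic (median 8.43 RPKM), GABAergic (6.94), other dopaminergic (5.19) and glutamatergic (3.17). A region lay there for 4 of 5 serotonergic and 8 of 9 glutamatergic genes with an entry, and the medians cover those only. The 4 dopaminergic markers other than Th had a median of 5.62 RPKM. Gad1 and Gad2, which make GABA, had 7.53 ± 1.88 and 9.43 ± 1.22 RPKM (SD, n = 3) at their starts, and Slc17a6 had 11.0 ± 1.57. Slc18a2, the vesicular transporter of dopamine, had 4.87 ± 1.00. The ranges of these classes overlapped, and apart from Th the dopaminergic medians lay between those of the other neuron classes.

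Genes of glia, microglia and vessels were mostly low at their own starts. Medians cover only genes with a region there. They were 2.55 RPKM for 10 astrocyte, 1.78 for 2 microglia and 1.55 for 3 oligodendrocyte precursor genes. For 6 of 7 oligodendrocyte genes with an entry the median was 1.32, and for 5 of 7 endothelial and mural genes 3.42. The last of these lay above the glutamatergic median of 3.17. For Slc1a2, an astrocyte gene, the start entry used had 1.06 RPKM, while a region at the start bound of the gene had 22.2. Among the lowest of their lists, Gfap, the filament of astrocytes, had 0.653, 0.970 and 0.707 RPKM. The myelin genes Mog, Mag and Mobp, also among the lowest, had means of 0.478, 0.453 and 0.370. Highest were Aldoc, at 26.7 RPKM, and Cnp, at 16.5. Cldn11 (5.57), Vcan (5.22) and Kdr (4.68) lay within the 3.88 to 6.99 RPKM of the dopaminergic markers other than Th. Of 7 microglia genes with a start entry, 2 had a region there. At the depth of these libraries, 3 reads in a region of 401 bp come to 0.218, 0.112 and 0.141 RPKM, so the levels at the myelin genes lie above this counting floor.

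Within 5000 bp, the same lists had 0 genes in the set: 12 astrocyte, 12 oligodendrocyte, 5 precursor, 12 microglia and 12 endothelial and mural genes. Their medians were 9.54, 6.79, 7.76, 5.96 and 5.84 RPKM. The astrocyte genes ran from Gjb6 (1.26) to Agt, through a region nearest to the start of Capn9 (15.9, against 2.32 at the start of Agt itself), Slc1a2 (22.2) and Aldoc, through the start of Pigs (31.0). Those of oligodendrocytes ran from Mog (0.800) to Olig1 (14.8), Cnp (16.5) and Mbp, the myelin basic protein (22.8). Among precursor genes Gpr17 was lowest (0.634) and Cspg4 (14.0), Bcas1 (10.1) and Pdgfra (7.76) highest. C1qa and C1qc shared a region of 13.8 RPKM, Spi1 had 11.9, Trem2 0.619, and Tmem119 and Itgam had no region. Pecam1 (9.84), Esam (8.95) and Cdh5 (8.76) led the endothelial list, and Tek was lowest (1.97). The share of nuclei of these types in the sort was not tested.

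**Figure D4:**
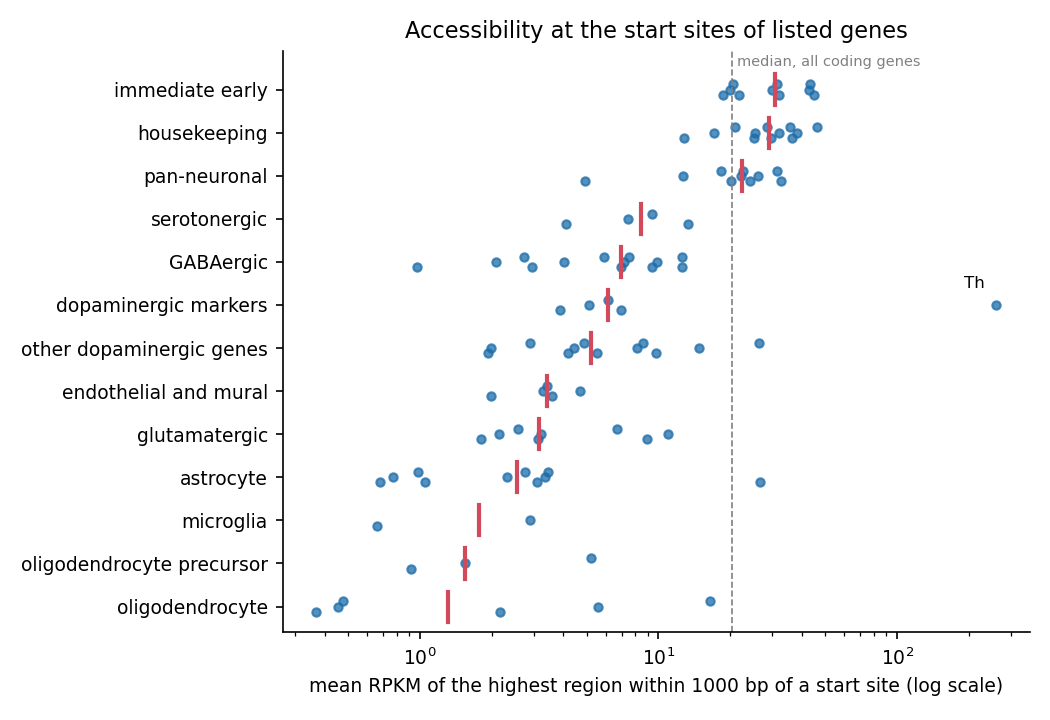
Mean RPKM over the 3 control libraries (log scale) of the highest region within 1000 bp of a gene's own start site, for genes of the 13 lists. Points are genes, red bars are list medians and the dashed line is the median of all coding genes, 20.3 RPKM. Immediate early genes have a median of 30.7 and oligodendrocyte genes 1.32, and Th stands alone at 258.6.

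Families of genes named by symbol were counted in the same way, and were chosen after the levels were seen. Of the zinc finger and BTB proteins (Zbtb), 6 of 41 (14.6%) had a region of the set, with Zbtb5 highest at 67.5 RPKM, against 6.21% of all coding genes. The cytosolic ribosomal proteins had 7 of 84 (8.33%), those of mitochondria 6 of 78 (7.69%), the proteasome 1 of 51 (1.96%) and complex I 2 of 49 (4.08%). Spliceosomal ribonucleoproteins (Snrp) had 1 of 12 (8.33%). Larger families lay near or below the background, with 20 of 397 zinc finger proteins (Zfp, 5.04%), 6 of 94 potassium channel genes (6.38%) and 16 of 375 solute carriers (4.27%). Olfactory receptors had 1 of 1110 (0.0901%), Olfr288, through a region 4365 bp away, and 1030 of them had no region at all. Vomeronasal receptors had 0 of 355.

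The spread between libraries in the set was small but larger than counting error. The coefficient of variation (CV) is the SD as a percent of the mean. Its median was 8.31% in the 1000 regions and 15.6% in all regions. The CV expected from counting error alone, the root of its expected variance over the mean, had medians of 3.30% and 15.0%. With counting error only, the median CV over 3 libraries lies below this expected value, so the 2 are unlike measures. Over all regions the pairwise chi-square per degree of freedom, given under processing, was 1.84 to 2.22. In 946 of the 1000 the CV was above that expected from counting, against 57.9% of all regions. Counting error alone leaves most regions below that value, so these shares are not to be set against an even split. In the 18315 regions of the highest decile outside the set, which also have many reads, the median CV was 7.11%. The CV expected there from counting error alone had a median of 5.37%, and 67.5% of these regions were above theirs. Over 2 libraries only, the median CV of the highest 1000 was 6.13% without library 1, 5.37% without library 2 and 11.1% without library 3. A CV over 2 libraries is not a like measure to the 8.31% over 3. Much of the spread beyond counting error in the set had 1 direction. In 764 (76.4%) of the 1000, library 1 was highest and library 2 lowest, an order seen in 17.3% of all regions. The median level of the set was 51.3, 44.6 and 48.2 RPKM in libraries 1, 2 and 3, while the median of all regions was 2.25, 2.20 and 2.31.

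Within the set, Th stood apart from this order. Library 2 was highest in 5 of the 1000 regions, the 3 at Th and those at Cables2 (45.5, 47.2 and 46.3 RPKM) and Sp3 (39.6, 43.0 and 42.6 RPKM). Library 1 was lowest in all 5, an order seen in 15.1% of all regions and so common outside the set. Another 10.6% of all regions had library 2 highest and library 3 lowest. The CVs at Th, 37.4%, 42.0% and 47.0%, were the largest of the set. The next were at Mlst8, a subunit of the mTOR complexes (54.7, 37.2 and 36.0 RPKM, 24.6%), Snrnp70, a splicing factor (55.6, 40.4 and 38.1 RPKM, 21.2%) and Cactin (20.1%), and these 6 were the only members with a CV of at least 20%. In these last 3 library 1 was high. The smallest CVs were at Ube2ql1 (0.652%), Ddost (1.27%), Arvcf (1.30%), Axin1 (1.56%) and Snn (1.58%), all below the CV that counting error gives there.

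**Figure D5:**
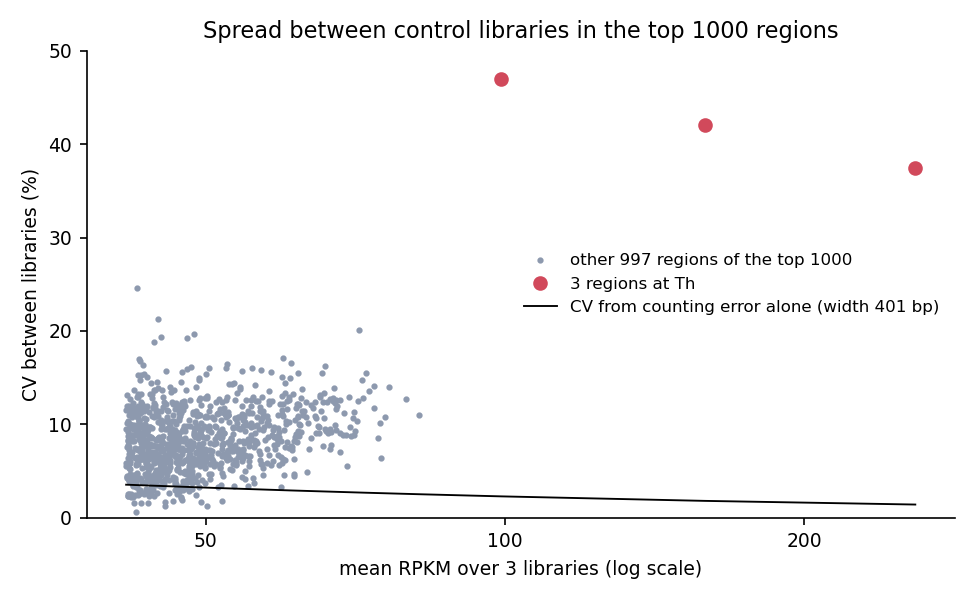
CV between the 3 control libraries (percent) against mean RPKM (log scale) for the 1000 regions of highest level. Red points are the 3 regions at Th, with CVs of 37.4% to 47.0%, and the line is the CV expected from counting error alone for regions of 401 bp. The other 997 regions lie at or below 24.6%.

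As a description, the choice was repeated on 2 libraries at a time, leaving out libraries 1, 2 and 3 in turn. The 1000 regions chosen each time shared 952, 972 and 966 with the set, which all 3 libraries had chosen. Of the regions chosen each time, 867, 904 and 901 were also in the top 1000 of the library left out. In its top 2000 were 998, 1000 and 1000 of them. Their median level in the library left out was 51.1, 44.6 and 48.2 RPKM, and 85.3%, 85.1% and 85.0% of them lay at gene ends. Within the set, the order of regions correlated between libraries with Spearman's rho of 0.813 (1 and 2), 0.819 (1 and 3) and 0.923 (2 and 3), across regions that share their libraries. The third region at Th had rank 371 in library 1 alone and rank 3 in the others.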

How the data were processed

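The 3 control libraries of an ATAC-seq series were used, grouped by the genotype label. Tools listed in the submitters' processing notes, with no role for any, are MACS2, Picard, SAMtools 1.9, BWA, Trimmomatic and FastQC, and the build is mm10. Not given in the sources used here are how the 193148 regions were made (94.6% of them 401 bp wide), whether reads were shifted for transposase binding, and how reads with several matches were treated. Per the file headers, the deposited tables hold a read count and an RPKM value per region. The RPKM values of the authors equal reads divided by region width in kilobases and by 1 total per library. Scores were not used.

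Regions were ranked by mean RPKM with Python 3.11.15 (pandas 2.3.3), and alternative scalings used edgeR 4.0.16 (TMM) and DESeq2 1.42.0 (size factors). The 1000 members, gene lists and families were chosen with earlier results of these data known. All 149 list genes matched RefSeq symbols. Promoter entries were found for 17491 of 21883 coding genes, so strand was unknown for the rest. Named were the 20 highest regions, the 5 markers, up to 3 highest and the lowest gene of each list, genes nearest to several members, the 5 largest and 5 smallest CVs, the 3 regions each side of rank 1000 and the 5 most remote; others illustrate a count, and a few that the rule names are not reported here. CVs from counting error assume Poisson reads. Simulated data tested their root mean square, not the median CV or the share of regions above them. With 1 group there was no test between groups. Depth and RPKM floors cover counting error only. The pairwise chi-square of reads per degree of freedom was 1.88 (libraries 1 and 2), 2.22 (1 and 3) and 1.84 (2 and 3). In the set it was 11.8, 4.36 and 4.90. These values cannot tell separate animals from separate preparations, so 3 is a count of libraries.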

Additional observations from a re-analysis of the deposited data

How the results depend on the processing

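Of 371 values under alternatives, 39 moved beyond the spread between libraries or counting error. Many of the others, such as the gene-end share of all regions under another ranking, could not change, so this count does not measure stability. The gene-end share of 85.1% became 85.8% without division by width, 83.5% in the top 2000, 81.9% with gene ends within 500 bp and 91.3% within 3000 bp. The share of reads of 5.45% became 5.92% without division by width, 3.03% for the top 500, 9.69% for the top 2000 and 6.23% for regions of the common width only. Without division by width, 648 of the 1000 regions remained, as wider regions then rank higher. The 10 list genes with a region of the set became 3 with the top 500 and 31 within 100000 bp. Among them, the 4 immediate early genes became 1 without division by width, 2 by the median over libraries, 0 in the top 500 and 7 within 100000 bp, and the 4 housekeeping genes became 1 in the top 500, 7 in the top 2000 and 10 within 100000 bp. Leaving out each library in turn left 952 to 972 of the 1000 regions, a gene-end share of 85.0% to 85.3%, a share of reads of 5.31% to 5.60% and 9 or 10 list genes. The median CV of 8.31% became 6.13% without library 1, 5.37% without library 2 and 11.1% without library 3. Each of these is over 2 libraries, so it is not a like measure to 8.31%. Motif shares with 1 promoter per gene, an alternative chosen after seeing the data, were 67.2% for CCAAT and 82.9% for GGGCGG. No paired analysis was possible because the members were described in a single group whose replicate numbers only name the libraries. The main limits are 3 libraries of 1 genotype, the lack of any comparison group, and gene annotation by bounds.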
